A study of Mus musculus with 2 samples.

Results

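DNase-seq maps accessible chromatin from the sites at which the nuclease DNase I cuts nuclear DNA. The data came from gastrocnemius, a calf muscle, of B6CASTF1/J mice, the F1 hybrids of C57BL/6J and CAST/EiJ, all female and 2 months old. The 2 libraries, biological replicates 1 and 2, formed 1 group, and the labels name no treatment or engineered allele. They give the libraries separate biosamples but 1 donor identifier, so the spread between them may be partly technical. The peaks described here are those that both libraries had at CpG-poor promoters. A shared peak was a merged region in which a peak of each library overlapped by at least 1 bp. It was kept when its midpoint lay within 1 kb of a protein-coding transcript start with few CpG dinucleotides. CpG content was the observed over expected frequency of CpG in the 500 bp on either side of the start, and a start was CpG-poor below 0.35. This gave 1973 regions of the 18551 shared peaks near protein-coding starts (10.6%) and of the 49160 shared peaks in all (4.01%).

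Most mammalian genes that are active in many cell types start in CpG islands, stretches that escape methylation and are accessible in nearly every tissue. CpG-poor promoters lack such an island. They tend to belong to genes used by 1 or a few cell types, and they are commonly opened by sequence-specific factors of that cell type. In skeletal muscle these factors include MYOD and MYOG at E-boxes, MEF2 proteins, serum response factor at CArG boxes, and TEAD proteins. In DNase data a bound factor can leave a footprint, a short stretch that is cut less than the accessible DNA around it.

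The name CpG-poor held for most of the 1973 regions and not for all. In 1527 of them (77.4%) every protein-coding start within 1 kb was CpG-poor. The other 446 (22.6%) also lay within 1 kb of a CpG-richer start, and in 334 of those (74.9%) the CpG-richer start was the nearest one. Measured around the peak itself, median CpG observed/expected was 0.239 in the 1527 regions and 0.523 in the 446, against 0.744 at other promoter shared peaks and 0.233 at shared peaks farther from starts. Values of the 1527 and the 446 are given beside those of all 1973 for the measures in which they part most. At the edge of the rule, the peaks at Ly6e, Zfp457 and Gstp2 lay just under the threshold, with start values of 0.35, 0.35 and 0.349 after rounding, and those at Chodl and Slc2a10 just over it. Rank percentiles of 37.8 to 52.3 among promoter peaks inside and 1.70 to 44.6 outside overlapped.

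Sequence of the accessible DNA is shown for 7 of these promoters and, for contrast, for the albumin promoter, which had no peak in either library. Each window is the 200 bases before an annotated start and holds no annotated exon. Letters are from the GRCm38 (mm10) genome of RefSeq, which is the C57BL/6J sequence, so the CAST/EiJ chromosome can differ. Capitals mark bases inside a footprint of both libraries. Tldc1, which encodes a TLDc-domain protein, had the highest mean rank among regions with only CpG-poor starts. Apart from Tldc1, the genes were chosen after their values had been seen. Ckm encodes muscle creatine kinase, Acta1 skeletal alpha-actin, Tnni2 fast troponin I, Atp2a1 the fast-fibre calcium pump SERCA1, Pygm muscle glycogen phosphorylase and Cox7a1 a muscle and heart subunit of cytochrome c oxidase. Albumin, from Alb, is made by hepatocytes.
Tldc1, chr8:119778417-119778616, mm10, minus strand: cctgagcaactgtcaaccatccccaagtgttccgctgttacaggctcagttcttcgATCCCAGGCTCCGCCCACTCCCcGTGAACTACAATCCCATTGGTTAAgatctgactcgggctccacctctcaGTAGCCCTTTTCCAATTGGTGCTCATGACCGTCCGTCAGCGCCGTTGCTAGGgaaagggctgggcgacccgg
Ckm, chr7:19410825-19411024, mm10, plus strand: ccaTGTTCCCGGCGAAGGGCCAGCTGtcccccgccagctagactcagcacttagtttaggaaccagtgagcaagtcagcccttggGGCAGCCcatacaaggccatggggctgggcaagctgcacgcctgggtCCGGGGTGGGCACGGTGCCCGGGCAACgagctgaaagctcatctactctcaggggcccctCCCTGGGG
Acta1, chr8:123894752-123894951, mm10, minus strand: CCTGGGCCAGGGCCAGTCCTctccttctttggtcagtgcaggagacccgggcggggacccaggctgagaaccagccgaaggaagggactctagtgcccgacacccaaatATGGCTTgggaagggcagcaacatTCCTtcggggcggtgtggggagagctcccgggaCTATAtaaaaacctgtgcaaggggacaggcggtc
Tnni2, chr7:142441608-142441807, mm10, plus strand: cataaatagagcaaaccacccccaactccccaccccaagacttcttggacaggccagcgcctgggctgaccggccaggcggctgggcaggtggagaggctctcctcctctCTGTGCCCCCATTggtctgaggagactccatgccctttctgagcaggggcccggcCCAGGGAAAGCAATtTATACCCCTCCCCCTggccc
Atp2a1, chr7:126463109-126463308, mm10, minus strand: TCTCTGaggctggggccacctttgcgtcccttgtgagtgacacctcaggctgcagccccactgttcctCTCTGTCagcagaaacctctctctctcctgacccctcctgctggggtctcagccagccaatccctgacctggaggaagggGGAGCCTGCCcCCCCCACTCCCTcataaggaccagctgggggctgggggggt
Pygm, chr19:6384199-6384398, mm10, plus strand: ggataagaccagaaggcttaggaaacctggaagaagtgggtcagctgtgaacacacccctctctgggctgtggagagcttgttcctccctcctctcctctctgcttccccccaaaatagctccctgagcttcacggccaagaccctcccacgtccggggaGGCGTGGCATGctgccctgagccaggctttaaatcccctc
Cox7a1, chr7:30183944-30184143, mm10, plus strand: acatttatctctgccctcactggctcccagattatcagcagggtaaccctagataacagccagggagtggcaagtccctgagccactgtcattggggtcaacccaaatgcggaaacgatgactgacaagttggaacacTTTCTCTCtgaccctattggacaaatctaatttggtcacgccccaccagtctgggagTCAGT
Alb, chr5:90460697-90460896, mm10, plus strand: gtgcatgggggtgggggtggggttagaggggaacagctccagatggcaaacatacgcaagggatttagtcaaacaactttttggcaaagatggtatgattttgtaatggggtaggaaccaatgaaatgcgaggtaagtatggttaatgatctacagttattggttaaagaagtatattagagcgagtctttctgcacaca

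The footprints covered different shares of these windows. At Tldc1, 98 of the 200 bases lay in footprints of both libraries, including CCAAT boxes, the sites of NF-Y, at positions -106 to -102 and -61 to -54 from the start. At Ckm 65 bases did, and they held the CAGCTG E-box at -180 to -175. At Acta1 36 bases did. The CArG box of Acta1 at -97 to -88 and its TATAAA at -31 to -26 lay partly in footprints of both libraries, as the capitals show. At Tnni2 42 bases did, with a reversed TATAAA at -22 to -17 mostly in footprints of both libraries. Atp2a1 carried CAGCTG at -20 to -15 and Pygm at -159 to -154, outside footprints in both libraries. The Alb window held no footprint in either library. Nor did the windows, not shown, at Mtmr4, Hexim2, Il11ra1, Smdt1 and Prcd, whose CpG-poor starts had a shared peak within 1 kb. The strongest shared peak near the start of each of these genes lay outside its window and held 3 to 6 footprints per library. The lack of a footprint there thus describes where the window lay and not the peak. At Tnnt3 and Synpo2l, also not shown, no base lay in footprints of both libraries. The Tnnt3 window held 3 footprints in replicate 1 and 1 in replicate 2, and that of Synpo2l 1 and 0. A match to these letters describes the sequence and does not show that a factor was bound.

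CpG-poor starts were seldom accessible. Of 20889 CpG-poor starts, 2382 had a shared peak within 1 kb (11.4%, exact 95% interval 11.0 to 11.8), against 27407 of 33472 other starts (81.9%, 81.5 to 82.3) and 54.8% of all 54361. These and all later intervals cover counting error only, and starts that lie close together share peaks. The share climbed with CpG content, through 1.70% of starts below 0.1, 8.48% between 0.1 and 0.2, 14.9% between 0.2 and 0.3 and 23.9% between 0.3 and 0.35. It was 33.2% just above the threshold, between 0.35 and 0.4, and 96.1% between 0.9 and 1. In single libraries 12.6% of CpG-poor starts had a peak in replicate 1 and 27.8% in replicate 2, against 82.9% and 90% of other starts. Counted by gene, 1443 of 11684 genes with a CpG-poor start had a shared peak there (12.4%). Among the 6999 genes with CpG-poor starts only, 641 did (9.16%), while 8268 of 10169 genes without a CpG-poor start had a shared peak (81.3%).

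**Figure D1:**
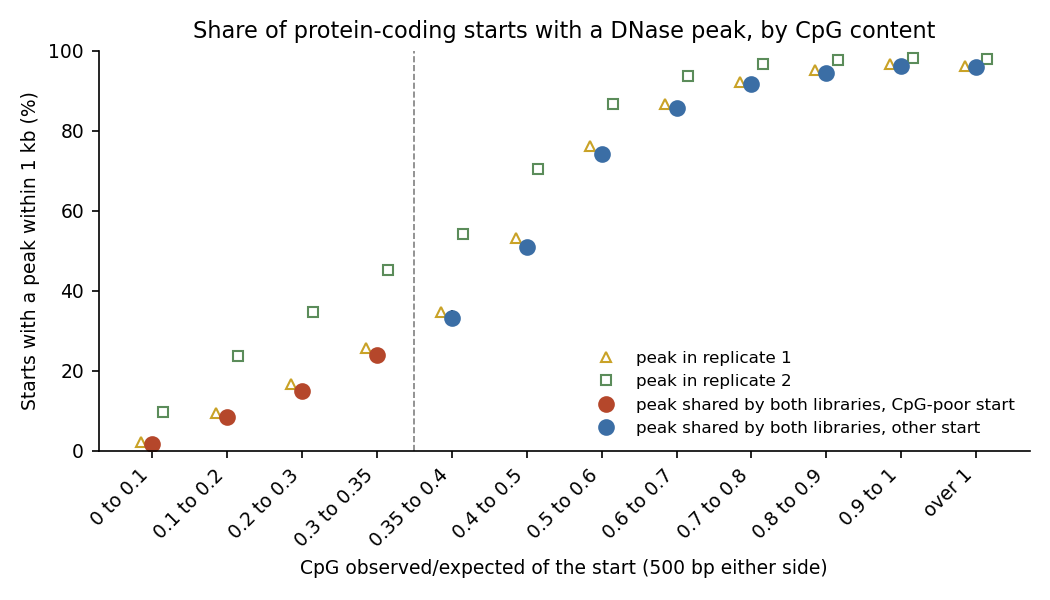
Share of protein-coding starts with a peak within 1 kb (vertical axis, %) by CpG observed/expected of the start (horizontal axis). Filled circles are shared peaks, red for CpG-poor and blue for other starts, and open symbols are peaks of single libraries. The shared share goes from 1.70% in the lowest class to 96.1% between 0.9 and 1.

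The peaks at CpG-poor promoters were weaker than those at other promoters in both libraries. Median deposited signal, a value per peak whose scale is not stated, was 1.03 at CpG-poor promoters and 1.70 at other promoters in replicate 1. In replicate 2 the medians were 1.92 and 3.53. Replicate 1 gave a ratio of medians of 0.606 and replicate 2 one of 0.543, which average 0.574 ± 0.0445 (SD, n = 2 libraries). With 2 libraries in 1 group no test was made, and the ratio lay below 1 by several times the spread between the libraries. Over all peaks of replicate 2, shared or not, it was 0.325. In the 1527 regions with CpG-poor starts only the medians were 0.954 and 1.82, and in the 446 with a CpG-richer start 1.31 and 2.61. All of these lay above the shared peaks farther from starts, with 0.767 in replicate 1 and 1.35 in replicate 2. Few CpG-poor regions reached the strongest 10% of promoter peaks by mean rank: 8 of the 1527 (0.524%) and 27 of the 446 (6.05%).

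Width differed little. In replicate 1 the CpG-poor regions had a median width of 240 bp and other promoter peaks 260 bp, and in replicate 2 both had 220 bp. The mean ratio of 0.962 ± 0.0544 (SD, n = 2) was not apart from 1 by more than the spread between libraries. In the 1527 regions with CpG-poor starts only median widths were 224 bp and 206 bp in the libraries, and the ratio was 0.899 ± 0.0529. Accessible DNA around the start was shorter in total. Within 1 kb of CpG-poor starts with a shared peak, a median of 358 bp in replicate 1 and 613 bp in replicate 2 lay in segments at a false discovery rate of 0.05 or below, against 841 bp and 1010 bp at other starts with a shared peak.

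**Figure D2:**
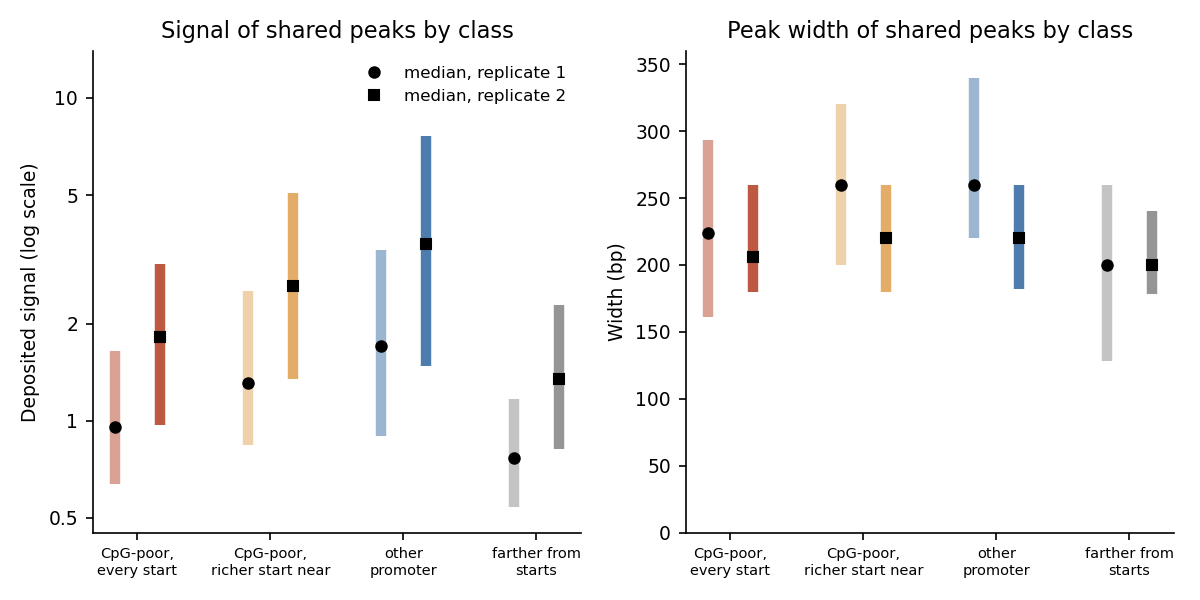
Deposited signal (left, log scale) and peak width in bp (right) of shared peaks by class; dots are medians of replicate 1, squares medians of replicate 2, and bars run from the lower to the upper quartile. Median signal was lower at CpG-poor than at other promoters in both libraries, while widths overlapped.

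The peaks also lay farther from the nearest start of their class. Their midpoint lay within 100 bp of the CpG-poor start in 41.0% of the 1527 regions and 16.1% of the 446, against 53.5% at other promoters. It lay over 500 bp away in 24.8% and 64.3%, against 15.6%. The median position was 19 bp upstream of the start in the 1527 regions and 11 bp upstream at other promoters. For the 446, the distance is to the CpG-poor start that placed them, not to the CpG-richer one. A promoter with more annotated starts can give a shorter distance, and the number of starts was not matched between the classes.

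**Figure D3:**
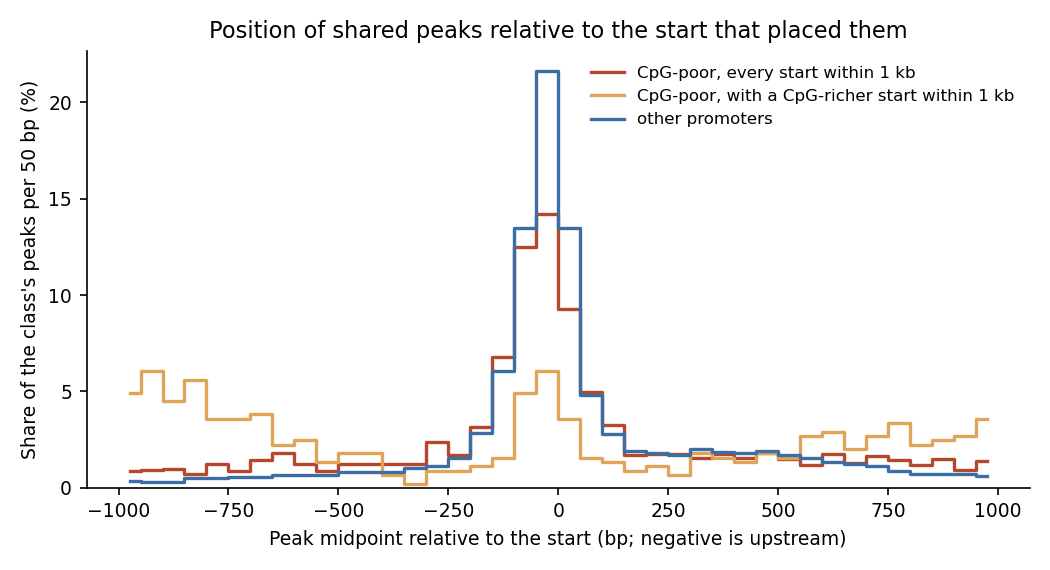
Share of each class's shared peaks per 50 bp (vertical axis, %) by distance of the peak midpoint from its start (horizontal axis, bp, negative upstream). The 1527 regions with CpG-poor starts only and the other promoter peaks are both centred just upstream of the start, while the 446 regions near a CpG-richer start are spread more widely, with 6.05% both in the 50 bp before the start and between -950 and -900 bp, and 3.59% in the last 50 bp downstream.

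The share of peaks with a footprint did not separate the classes beyond the spread between libraries. In replicate 1, 87.6% of CpG-poor regions (86.1 to 89.1) and 87.2% of other promoter peaks (86.7 to 87.7) held the midpoint of a footprint, beside 87.3% of all promoter shared peaks. In replicate 2 the shares were 89.6% (88.2 to 90.9) and 85.6% (85.0 to 86.1), beside 86.0%. The mean difference of 2.23 ± 2.56 percentage points (SD, n = 2) was smaller than its spread. It was -0.732 when midpoints had to lie within 500 bp of the start, and -1.93 and -9.75 over all peaks of replicates 1 and 2 taken alone, shared or not. Footprints per kb of peak were 8.58 and 10.5 in replicate 1 and 9.92 and 10.2 in replicate 2, with a mean ratio of 0.897 ± 0.108 (SD, n = 2).

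Among shared peaks of like signal in classes 1 to 3, a larger share of all CpG-poor regions than of other promoter peaks held a footprint. Promoter shared peaks were split by signal into 5 equal classes in each library, class 1 being the weakest. In class 2 of replicate 1, 88.4% of CpG-poor regions had a footprint (85.4 to 90.9), against 72.4% of other promoter peaks (70.8 to 73.9). In class 2 of replicate 2 the shares were 91.6% (89.0 to 93.7) and 69.3% (67.6 to 70.9). In class 1 they were 75.8% and 71.9% in replicate 1, and 76.0% and 63.1% in replicate 2. In class 3 they were 93.5% and 89.4% in replicate 1, and 97.5% and 92.1% in replicate 2. The 1527 regions with CpG-poor starts only had 77.1% in class 1 and 89.3% in class 2 of replicate 1, and 77.7% and 93.3% in replicate 2. The 446 had 68.4% and 84.3% in those classes of replicate 1, and 66.7% and 84.6% in replicate 2. In class 1 of replicate 1 the 446 were thus below other promoter peaks. In classes 4 and 5 both kinds of promoter reached at least 99.0%. CpG-poor peaks of class 2 were also narrower, with a median of 222 bp against 283 bp in replicate 1 and 200 bp against 240 bp in replicate 2. The part of base composition or width in the footprint calls was not tested.

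**Figure D4:**
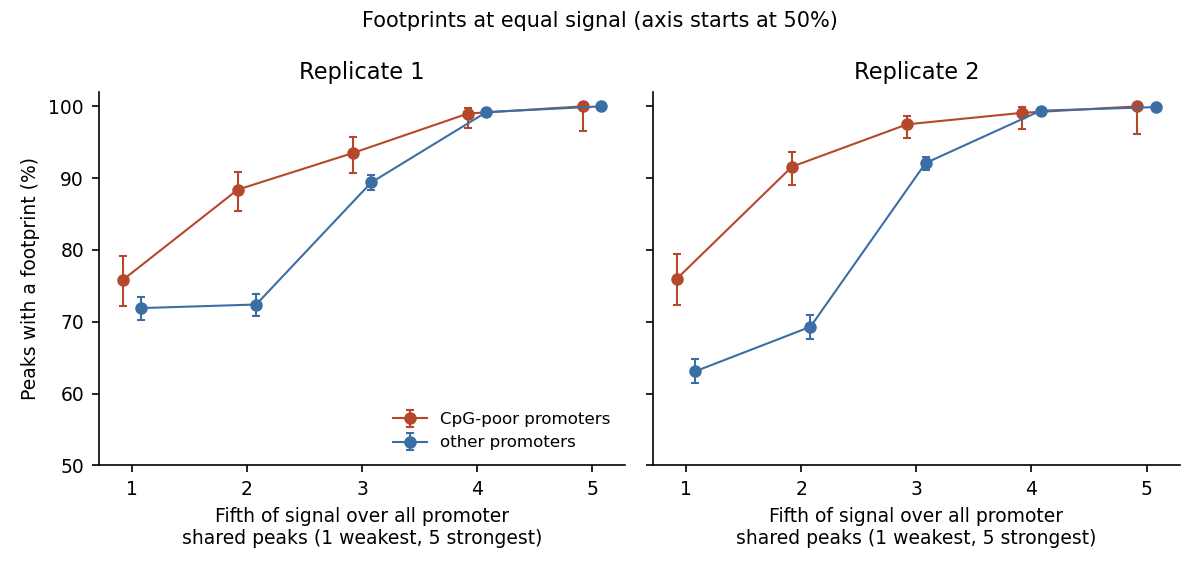
Share of promoter shared peaks with a footprint (vertical axis, %, from 50%) by signal class from 1, weakest, to 5 (horizontal axis) in each library, with exact 95% intervals; CpG-poor promoters are red and other promoters blue. The red points lie above the blue ones in classes 1 to 3 of both libraries and meet them in classes 4 and 5.

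Over all peaks, those at CpG-poor promoters recurred less between libraries, and at like signal this depended on the library. Of replicate 1's 2591 peaks at CpG-poor promoters, 79.3% overlapped a peak of replicate 2, against 89.5% of its peaks at other promoters. Of replicate 2's 7587 peaks, 27.3% overlapped one of replicate 1, against 67.4%. With all promoter peaks of a library, shared or not, split by signal into 5 classes, the shares of replicate 1 at CpG-poor and at other promoters were 51.8% and 64.5% in class 1, 86.4% and 86.1% in class 2, and 96.1% and 94.4% in class 3. In replicate 2 they were 3.34% and 10.4% in class 1, 15% and 33.6% in class 2, 46.6% and 68.9% in class 3, and 92.1% and 93.6% in class 4. In class 5 they were 100% and 99.9% in replicate 1, and 99.6% and 99.4% in replicate 2. At CpG-poor promoters 49.1% of the footprints of replicate 1 overlapped one of replicate 2, and 42.2% of those of replicate 2 overlapped one of replicate 1, against 56.8% and 57.7% at other promoters.

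Of the 15 strongest regions by mean rank, 11 belonged to the set with a CpG-richer start nearby. Mtmr4, for a myotubularin-related lipid phosphatase, had the strongest peak (chr11:87591821-87592140), with signal 22.6 in replicate 1 and 60.6 in replicate 2. It lay at -911 bp from a CpG-poor start but 176 bp from another Mtmr4 start with CpG observed/expected of 0.640. Hexim2, Parp3, Xrcc1, BC024978, Aamp, BC025920, Nubp2, Acy1, Smdt1 and Ankrd9 were of the same kind, and for Parp3, BC024978 and Nubp2 the nearest start was that of another gene, Rrp9, Snrpa and Spsb3. The 4 strongest with CpG-poor starts only were Tldc1, Tef, Il11ra1 and Prcd. The peak of Tldc1 (chr8:119778361-119778560), centred 45 bp before the start, had signal 11.5 in replicate 1 and 50.3 in replicate 2. Tef encodes a clock-controlled bZIP factor, and its peak (chr15:81802461-81802740) had 12 in replicate 1 and 30.8 in replicate 2. Il11ra1, for an interleukin-11 receptor chain, had 9.33 and 29.5 in replicates 1 and 2, and Prcd, named for a retinal degeneration, 6.74 and 22.4. The peak of Prcd lay 913 bp inside its gene.

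Genes of the muscle fibre held many of these promoters. Over 7 lists of muscle genes, 120 genes had a CpG-poor start and 85 of them had a shared peak there (70.8%), beside 12.4% of all genes with a CpG-poor start. The strongest peak per gene had a median rank percentile among promoter peaks of 35.5 to 70.7 in these lists, beside 37.6 over all 1443 genes. The lists were written with earlier results of these data known, so these counts describe the promoters and test nothing. A gene with several CpG-poor starts has more windows in which a peak can lie.

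The contractile filaments showed accessible fast-fibre promoters. Of 24 thick and thin filament genes with a CpG-poor start, 11 had a shared peak, with a median rank percentile of 70.7. Tnnt3, for fast troponin T, had signal 5.73 in replicate 1 and 9.14 in replicate 2, although its start has CpG observed/expected of only 0.0827 (chr7:142498581-142498840). Acta1 had 4.46 and 8.44 in replicates 1 and 2 (chr8:123894681-123895060), with 7 and 13 footprints, and Tnni2 had 4.47 and 7.59. Mylpf, the fast regulatory light chain, had 2.62 and 3.46, and Myl1, the fast essential light chain, 0.966 and 0.998. The genes were split by fibre type after the values had been seen. Of 9 fast genes with a CpG-poor start 7 had a shared peak there, and of 7 slow ones 0 did. Over all genes with a CpG-poor start the share was 12.4%, and 7 genes are too few to set a count of 0 apart from it. The slow genes were Myh7, Myl2, Myl3, Tnnt1, Tnni1, Tnnc1 and Mybpc1, the last with a shared peak at a CpG-richer start. Of these 7, 5 had a peak near a CpG-poor start in replicate 2 alone, with signal of 0.347 (Myh7), 0.824 (Myl3), 0.6 (Tnnt1), 0.549 (Tnni1) and 0.415 (Tnnc1). The 2 fast genes without one were myosin heavy chains: Myh4 had a peak of signal 1.08 in replicate 1 only, and Myh1 had none in either list.

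Z-disc and M-band genes, which anchor the filaments, had a shared peak at 22 of 29 CpG-poor promoters. Cryab, for the chaperone alpha B-crystallin, had the strongest, with 6.22 in replicate 1 and 11.7 in replicate 2 (chr9:50752841-50753100). Ankrd23, a muscle ankyrin repeat gene, had 3.67 and 5.55, and Ldb3, for the Z-disc protein ZASP, 3.90 and 5.12. At the low end Myoz2, the slow-fibre and heart calsarcin, had 0.509 and 0.633. Myom2, for an M-band protein, had one of the CpG-poorest starts of all, at 0.0470, with signal 1.76 and 2.92. Ttn and Neb, genes of the giant sarcomere proteins titin and nebulin, had no shared peak at a CpG-poor start but did at a CpG-richer one.

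Genes of excitation-contraction coupling, which links the membrane signal to calcium release, had a shared peak at 17 of 20. Atp2a1 had signal 3.99 in replicate 1 and 7.49 in replicate 2, with 4 and 9 footprints (chr7:126463041-126463320). Jph2, which ties the sarcoplasmic reticulum to the T-tubule, had 3.21 and 5.97, and Hrc, for a calcium-binding protein of that reticulum, 3.24 and 5.00. Cacna1s, the voltage sensor, had 3.02 and 4.29. Sln and Scn4a had no peak in either library at a CpG-poor start, and Pln one of 0.572 in replicate 2 only. Sln and Pln encode inhibitors of the calcium pump, and Scn4a the muscle sodium channel.

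Fuel genes reached 15 of 19 for glycolysis, glycogen and phosphotransfer and 10 of 12 for fatty acid use and mitochondria. Ckm had 8.18 in replicate 1 and 10.3 in replicate 2, with 7 and 6 footprints (chr7:19410801-19411120), and was the strongest of them with CpG-poor starts only. Gapdh, a glycolytic enzyme, had 7.23 and 14.3, but a CpG-richer start lay within 1 kb. Ak1, for adenylate kinase, had 4.52 and 8.52, and Pygm 4.30 and 7.80. Cox7a1 had 3.39 and 6.46, Cox8b, another muscle subunit of that oxidase, 2.72 and 3.89, and Mb, for myoglobin, 2.29 and 4.42. Ppp1r3a, for a muscle glycogen-targeting subunit of protein phosphatase, was weakest by rank at 0.533 and 0.432. Cd36, the fatty acid transporter, had 0.527 and 1.28, and 4 shared peaks lay near its CpG-poor starts. Ampd1, the muscle AMP deaminase, had no peak in replicate 1 and one of 0.241 in replicate 2.

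Regulators and the synapse gave smaller counts. Of 8 myogenic factors with a CpG-poor start 5 had a shared peak, led by Tead4 with 3.55 and 5.45 in replicates 1 and 2, Tbx15 with 2.48 and 4.12, and Tead1 with 2.25 and 4.37. Myog, the myogenin gene, had 1.62 and 2.15. At neuromuscular junction genes 5 of 8 did: Rapsn, for the receptor-clustering protein rapsyn, had 2.70 and 3.90, and Chrne, the adult receptor subunit, 1.12 and 1.96. Chrng, the fetal subunit, had a peak in replicate 2 only, at 0.375. Of 14 stress and atrophy genes 7 did, among them Trim63, the ubiquitin ligase MuRF1, with 3.88 and 4.59. Its start carries a TATA box, as do those of Acta1, Srl and Nmrk2.

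Promoters of other cell types varied from list to list. Over 10 lists of other cells of the tissue, 30 of 108 genes with a CpG-poor start had a shared peak (27.8%). Over 5 lists of other tissues 2 of 51 did (3.92%), beside 12.4% of all genes with a CpG-poor start. These shares depend on the library: of the 78 genes of other cells without a shared peak, 34 had a peak near a CpG-poor start in replicate 2 and 1 in replicate 1. Of the 49 genes of other tissues without one, 13 had such a peak in replicate 2 and 1 in replicate 1, and of the 35 muscle genes without one, 24 in replicate 2 and 1 in replicate 1. Fibroblast genes stood highest at 12 of 15 (80.0%), a share above that of the muscle lists together. They were led by Col1a2 with 2.21 in replicate 1 and 6.99 in replicate 2 and Col1a1 with 2.66 and 5.36, the chains of type I collagen. A CpG-richer start also lay within 1 kb of the Col1a2 peak. Most fibroblast peaks were weaker, with a median rank percentile of 25.4 beside 37.6 over all genes with such a peak, and Lum at 1.55. Endothelial genes reached 7 of 15 and mural genes 3 of 8. Macrophage genes reached 2 of 19, C1qa with 0.603 and 1.14 and C1qb with 0.544 and 1.23. Adipocyte and Schwann cell genes reached 2 of 10 each, and satellite and tendon cell genes 1 of 4 and 1 of 5. No lymphocyte gene of 14 and no erythroid gene of 9 had one, nor did any of 15 hepatocyte, 8 germline or 5 neuron genes. Of 10 keratinocyte genes 1 did, Trp63. In a whole tissue, fewer cells of a type and less accessible DNA per cell cannot be told apart.

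The ratio of signal between the libraries differed between these gene lists. The ratio of the strongest peak's signal in replicate 2 to that in replicate 1 had a median of 1.89 over all 1443 genes. Over the 85 muscle genes it was 1.53, with a range of 0.810 to 2.58, and 15 genes lay above 1.89. Over the 7 endothelial genes it was 3.43, with a range of 2.10 to 5.88, and all 7 lay above 1.89. Tie1, an endothelial receptor, had signal 0.580 in replicate 1 and 3.41 in replicate 2 and was among the 3 regions whose rank differed most between libraries. Egfl7, an endothelial secreted factor, had 1.07 and 4.67. Fibroblast genes had a median ratio of 2.17, with a range of 0.814 to 3.5, and 8 of 12 lay above 1.89. The cause of these ratios was not tested.

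**Figure D5:**
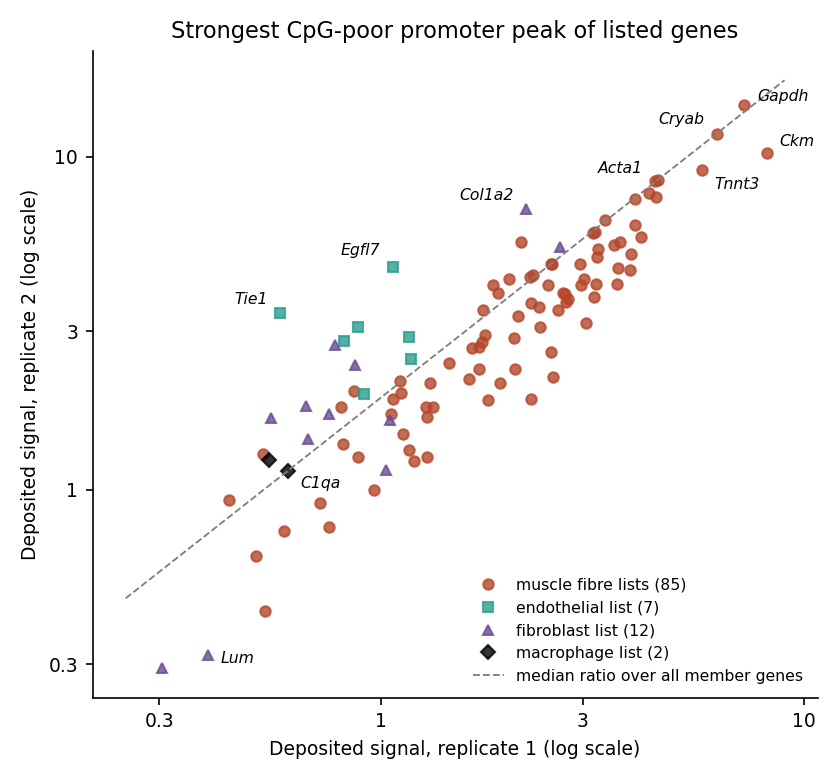
Strongest CpG-poor promoter peak of each listed gene, with deposited signal in replicate 1 (horizontal) and replicate 2 (vertical), both on log scales. The dashed line is the median ratio of 1.89 over all genes with such a peak; the 7 endothelial genes (squares) lie above it, and 15 of the 85 muscle genes (circles) do.

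A TATA box was uncommon at accessible CpG-poor starts. TATAAA with its first base 40 to 20 bp upstream stood at 47 of 2382 CpG-poor starts with a shared peak (1.97%, 1.45 to 2.62) and at 168 of 27407 other starts with one (0.613%, 0.524 to 0.713). It was more common at CpG-poor starts without a shared peak, at 540 of 18507 (2.92%, 2.68 to 3.17). Read the other way, 8.01% of CpG-poor starts with the box had a shared peak (5.94 to 10.5) and 11.5% of those without it (11.1 to 11.9). The 41 regions anchored at such a start had median signals of 1.11 and 1.79 in replicates 1 and 2, and the 1932 others 1.03 and 1.92.

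Motif content differed between CpG-poor regions and other promoter peaks, and within the CpG-poor regions between the 1527 and the 446. Both strands of the 150 bp at each peak midpoint were searched, and overlaps between motifs were not removed. The E-box CAGCTG, favoured by MYOD and MYOG, was in 23.5% of CpG-poor regions (21.6 to 25.4) and 9.42% of other promoter peaks (8.98 to 9.88). In the 1527 regions it was in 25.9%, in the 446 in 15.2%, and in shared peaks farther from starts 24.2%. The difference from other promoters was 14 percentage points over shared peaks and 7.68 over all peaks of replicate 2, shared or not. The NFI site TTGGCA was in 13.8% against 5.84%, the TEAD site CATTCC in 10.1% against 5.00%, the AP-1 site TGANTCA in 5.52% against 1.95%, and the MEF2 site in 0.912% against 0.193%. Shared peaks farther from starts had 19.0% for NFI, 10.4% for TEAD, 8.94% for AP-1 and 0.961% for MEF2. These shares were thus not particular to CpG-poor promoters. The CArG box differed little between CpG-poor regions and other promoter peaks, at 0.710% (0.388 to 1.19) against 0.573% (0.464 to 0.7). The SP/KLF GC box GGGCGG was in 21.4% against 52.2%, the ETS site CCGGAAG in 3.45% against 10.6%, and the CCAAT box in 20.4% against 24.7%. The GT box CCACCC was in 26.0% against 22.3%, and in 18.1% of shared peaks farther from starts. The 446 lay near other promoters for the GC box and this ETS site, with 42.6% and 8.97%, while the 1527 had 15.3% and 1.83%. The NFI site was in 15.5% of the 1527 and 8.30% of the 446. The GC box and this ETS site hold a CpG, so the rule itself lowers them. The regions had a median of 57.5% G and C against 65.8%, and the part of base composition in the other motifs was not tested.

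Among CpG-poor starts alone, the motifs in the 200 bp upstream also varied with accessibility. GGGCGG was at 19.2% of the 2382 with a shared peak and 7.52% of all 20889, CAGCTG at 19.5% against 12.5%, and the MEF2 site at 1.39% against 0.546%. TATAAA anywhere in those 200 bp was at 8.61% against 14.9%. Of the other motifs searched there, CCAAT was at 26.0% against 27.8%, TGANTCA at 6.34% against 7.35% and AGAACA at 13.9% against 17.3%. TCAGGTT was at 3.19% against 3.45%, and the CArG box at 1.34% against 1.09%. Accessibility also climbed with CpG content among CpG-poor starts, and the part of CpG content in these shares was not tested. Over all 54361 starts the shares were 38.0% for GGGCGG, 10.6% for CAGCTG, 0.337% for the MEF2 site and 8.32% for TATAAA.

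The motif sites differed in how often a called footprint covered them. Of 537 CAGCTG sites in CpG-poor regions, 17.5% had their middle in a footprint in replicate 1 and 19.9% in replicate 2, against 14.7% and 12.9% of 1679 at other promoters. Footprints covered 13.4% and 17.1% of all bases of the CpG-poor windows, and 19.2% and 20.7% at other promoters. NFI sites stood higher, with 38.3% and 49.5% of 295 sites, against 35.4% and 40.1% of 1000 at other promoters. Of 504 CCAAT boxes 28.0% and 36.7% were in a footprint, against 47.5% and 55.0% of 5732. In the 1527 regions these shares were 21.7% and 30.5% of 364 boxes, and in the 446 they were 44.3% and 52.9% of 140, close to other promoters. Cut preference of DNase I for certain sequences was not corrected for here.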

How the data were processed

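The peak lists, footprints and cut-rate segments of 2 DNase-seq libraries were used as deposited, on mm10 per the labels. Per the README file of each library, peaks came from that library's own filtered alignments, and footprints from those alignments and the cut-rate file, with aligner, callers and read depth not given in the sources used here. The deposited peak signal is never negative, and its scale is not stated, so a ratio of signals between the libraries is read only against the median ratio over all genes. The deposited p-value column of the footprint files held 0.01 in every row, and that of the cut-rate files was read as a false discovery rate, all at 0.05 or below. A list with more peaks, as in replicate 2 (258342 against 66984), may hold weaker sites, so only overlapping peaks were kept. Where a library had several peaks in a merged region, the strongest gave its signal and width.

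The longer of 2 peak lists was taken in each library. Overlapping peaks were merged, with regions that touch joined, and the midpoint was the mean of the strongest peaks' midpoints. Starts were those of protein-coding transcripts in GENCODE release M21, and sequence came from the RefSeq GRCm38 genome. A footprint was counted in a region by its midpoint. The members, the 39 gene lists and the 25 motifs were chosen with earlier results of these data known. Peaks, starts and genes are not replicates, so shares carry exact Clopper-Pearson 95% intervals, ratios carry the SD over 2 libraries, and no p-value is given. Genes were named by rank, list, footprints, width, CpG content and library difference, and those added later are marked. Some listed genes are not reported here. Software was pandas 2.3.3, pysam 0.24.0, numpy 2.4.6 and scipy 1.17.1 under Python 3.11.15. The overlap, class and motif functions recovered planted answers on simulated data.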

Additional observations from a re-analysis of the deposited data

How the results depend on the processing

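The 8 main values were recomputed under 10 alternatives, in 76 combinations. Of these 49 stayed within the spread between libraries, the exact interval or, for the count, 1.5 times, 24 moved farther and 3 turned in sign. Counts over starts do not depend on which start decides a peak's class. The number of regions was 1308 with midpoints within 500 bp of a start, 1229 with the shorter peak lists, and 2591 to 7587 with all peaks of 1 library. The share of CpG-poor starts with a peak was 8.85% within 500 bp, 9.68% and 13.3% with CpG thresholds of 0.30 and 0.40, 10.3% with equal numbers of strongest peaks, 7.54% with the shorter lists and 12.6 to 27.8% in single libraries. The signal ratio was 0.468 within 500 bp, 0.632 with the shorter lists and 0.325 to 0.598 in single libraries. The width ratio was 0.906 within 500 bp, 0.905 where the nearest start decided, 0.899 where every start had to be CpG-poor and 0.846 to 0.9 in single libraries. The difference in share of peaks with a footprint was -0.732 percentage points within 500 bp and -9.75 to -1.93 in single libraries, and its direction is not settled. Footprints per kb stood at a ratio of 0.776 to 0.839 in single libraries. The E-box difference was 17.1 points within 500 bp, 16.0 with the nearest start, 16.3 with every start and 7.68 to 11.3 in single libraries. For the TATA box, the share at CpG-poor starts with a peak stayed within its interval in all 8, while the difference was 1.2 to 1.76 points. For the TATA box and the E-box, a move was judged by the CpG-poor share, since the difference has no interval. Overlap of 50% of the shorter peak moved none of the 8 values. The cause of these shifts was not tested. Depth is unknown, and the shorter list of replicate 1 limits what can be shared. No paired analysis was possible because there was 1 group.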

Other observations

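Gene families with CpG-poor starts differed widely. None of 1130 olfactory receptor genes and none of 328 vomeronasal receptor genes with a CpG-poor start had a shared peak there. Keratin and keratin-associated genes reached 6 of 84, led by Krtap16-1 with signal 3.44 in replicate 1 and 6.46 in replicate 2. Cytochrome P450 genes reached 11 of 86, led by Cyp4f13 with 3.21 and 7.92. Solute carriers reached 22 of 181, and Slc25a25, for a mitochondrial ATP-magnesium carrier, had 4.34 and 18. Collagen genes reached 13 of 30 and S100 genes 6 of 12, with S100a16 at 3.09 and 8.33. Zinc finger genes named Zfp reached 30 of 180. These shares stand beside 12.4% over all genes with a CpG-poor start. Members of the large receptor families lie in clusters and are not independent.

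Some genes had much accessible DNA around a CpG-poor start. For each gene name and library, the CpG-poor start with the most bp in deposited accessible segments was taken. The bp were summed and need not be continuous, and the libraries' values can come from different starts of a gene. In 25 of 11677 gene names at least 1500 of the 2001 bp were covered in both libraries. The count was 60 in replicate 1 and 357 in replicate 2. All 25 had a shared peak near a CpG-poor start, which need not be the start so covered. Peaks and segments come from the same libraries, so this tests nothing. Of the 25, 5 were in the muscle lists, Gapdh, Pygm, Tnni2, Jph2 and Tcap. Gapdh, Tns2, Mafk, Plec and Parp3 had a CpG-poor start covered over all 2001 bp in each library. Plec, for the cytolinker plectin, also had the most shared peaks near its CpG-poor starts, with 7, and the widest region, 1340 bp, equal to that at Clec14a. The slow myosin gene Myh7 had 1913 bp in replicate 2 and 0 bp in replicate 1. On chromosome 7 lay 234 of the 1973 regions (11.9%) and 12.2% of CpG-poor starts, against 7.26% of other promoter peaks.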
